A study of Mus musculus with 12 samples.

Results

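The genes described here encode proteins that bind, sense or export calcium in hair cells. They are the EF-hand buffer genes Calb1, Calb2 and Pvalb, the calmodulin genes Calm2 and Calm3, the S100 genes S100a1 and S100a13, and the plasma membrane calcium pump genes Atp2b1 and Atp2b2. The 9 genes were chosen by name, with earlier results of these data known. They were matched through their GENCODE mouse gene names to Ensembl identifiers, out of 55416 genes in the count files. All 9 were found, and all 9 passed the filter on low counts in the comparison of inner hair cells (IHCs) with outer hair cells (OHCs).

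The libraries came from hair cells of the mouse organ of Corti at postnatal day 0 (P0), with 6 libraries of IHCs and 6 of OHCs. Both cell types are labelled wild type and were obtained by fluorescence-activated cell sorting from a cross that carried Atoh1-GFP, a GFP-Cre knocked into the Insm1 locus and a Cre-dependent tdTomato at R26. GFP alone marked IHCs, while GFP together with tdTomato marked OHCs, so the separation depended on the activity of the Insm1 locus. Each OHC carried a Cre at that locus, and IHCs of the same pups carried the same allele. For its pools for chromatin accessibility, sorted the same way, the paper states that each pup gave both cell types. Each library was made from cells pooled over several pups of both sexes, and ribosomal RNA (rRNA) was depleted before amplification from random hexamers and sequencing as pairs of 100 bp reads.

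Calcium enters hair cells through voltage-gated channels and through the transduction channels of the hair bundle. Mobile buffers of the EF-hand family bind it within the cytoplasm, calmodulin and the S100 proteins pass the signal on to target proteins, and pumps in the plasma membrane (PMCAs, encoded by the Atp2b genes) push it out again. Hair cells are known for using several of these buffers at once, and PMCA2, the product of Atp2b2, is the pump of the hair bundle, whose loss causes deafness in mice.

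Calm2 and Calm3 make the same calmodulin protein from different DNA, so their reads can be told apart although their products cannot. The DNA of codons 21 to 30 of both genes, which lies in the loop of the first calcium-binding EF hand, is shown here to illustrate how often the genes differ. Capitals mark the 7 of 30 bases that differ between them, and the strand of each gene in GRCm39 is written 5′ to 3′.
Calm2, chr17:87743307-87743336, minus strand: gacaaggaCggGgatggGacAatAacAacA
Calm3, chr7:16651598-16651627, minus strand: gacaaggaTggAgatggCacCatTacCacC
Over the whole coding sequence of 450 bases, Calm2 differed from Calm3 at 78 bases. None of these differences changed any of the 149 residues of the protein (0 residues differed). The longest identical stretch of coding sequence was 17 bases, which is shorter than a read.

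The libraries held 31490204 to 44017309 counts on genes in IHCs and 29564827 to 39121988 in OHCs. Genes of rRNA took 21.5% to 56.9% of these counts in IHCs, with the highest share in IHC replicate 1, and 23.4% to 36.4% in OHCs. Levels are given in CPM, the count of a gene as a part of all counts on genes after the library sizes were scaled by the trimmed mean of M-values (TMM), and a negative log2 fold change stands for a lower level in OHCs. Of the cell type markers, all 4 IHC markers (Tbx2, Fgf8, Slc17a8 and Otof) were higher in IHCs and 3 of 4 OHC markers (Insm1, Bcl11b and Neurod6, but not Ikzf2) were higher in OHCs. The sort itself used the Insm1 locus, so Insm1 is not a separate check. A list of 6 general hair cell markers summed to 4232 to 5227 CPM in IHC libraries and 4037 to 5338 CPM in OHC libraries. Within this list Gfi1 was higher in IHCs (190 ± 56.2 and 93.4 ± 20 CPM, adjusted p = 0.0106, edgeR quasi-likelihood test). Atoh1, Pou4f3 and Myo7a also averaged higher in IHCs. Myo6, the largest part of the sum (2277 and 3162 CPM), and Cdh23 averaged higher in OHCs. None but Gfi1 reached an adjusted p under 0.05. Markers of other cells also differed between the sorts. The summed level of 7 supporting cell markers was 322 to 715 CPM in IHC libraries and 129 to 292 CPM in OHC libraries, and that of 5 greater epithelial ridge markers, mostly Tecta, was 578 to 1094 CPM and 71.8 to 417 CPM. A list of 9 endothelial and pericyte markers summed to 0.378 to 6.02 CPM in IHC libraries and 12.1 to 180 CPM in OHC libraries, with the highest sum in OHC replicate 3. In pooled cells, fewer cells of a type and less RNA per cell cannot be told apart.

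Of the 9 genes, 4 were IHC-enriched at an adjusted p under 0.05 (edgeR quasi-likelihood test, Benjamini-Hochberg adjustment over 13269 genes) and none was OHC-enriched (0 of 9, also at an unadjusted p under 0.05, with DESeq2 and with the edgeR exact test). The 4 were S100a1, Calb2, Pvalb and Calm2, and they make up 44.4% of the 9 genes. Of all genes tested, 6.26% passed the threshold in either direction, 3.81% as IHC-enriched and 2.44% as OHC-enriched. At an unadjusted p under 0.05, Calm3 and Atp2b1 were also lower in OHCs, the value of Calm3 resting on IHC replicate 1, and Atp2b2, the only one of the 9 with a positive log2 fold change, did not pass (unadjusted p = 0.0807, edgeR quasi-likelihood test). The median log2 fold change of the 9 genes was -0.60, beside -0.04 over all genes tested. Because the 9 were chosen with earlier results of these data known, these comparisons do not stand as a test of the set.

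**Figure D1:**
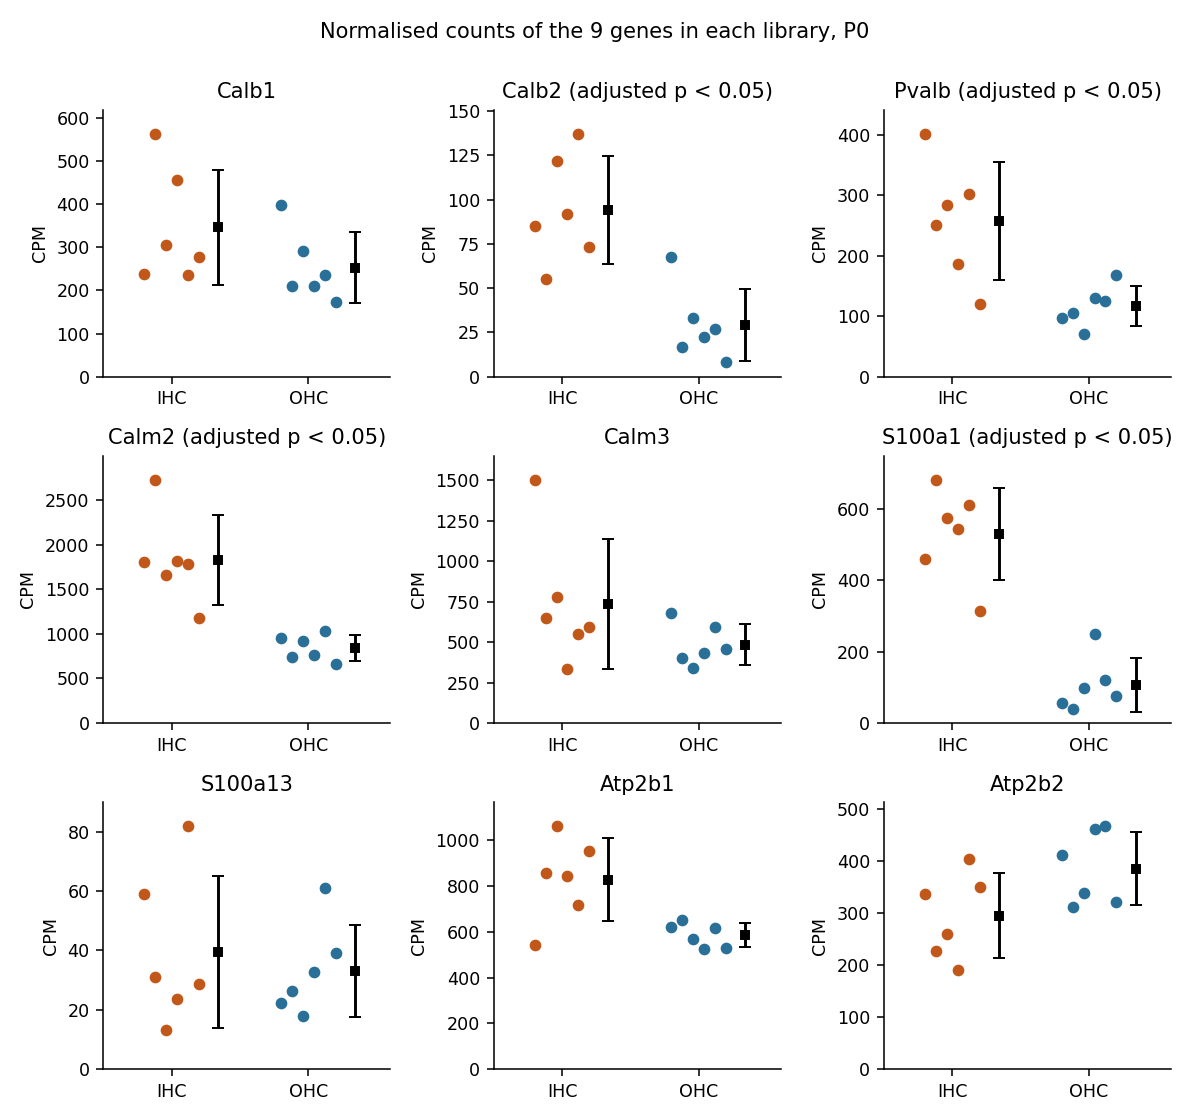
CPM (y axis, linear and starting at 0) of the 9 genes in 6 IHC libraries (orange) and 6 OHC libraries (blue), with points in the order of replicates 1 to 6 from left to right and black squares with bars for the mean ± SD. The IHC points of Calm2 and S100a1 all lie above the OHC points, and those of Calb2 and Pvalb do so in 5 of 6 libraries.

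The EF-hand buffer genes were all lower on average in OHCs, and 2 of the 3 passed the test. Calb2 (chromosome 8, 110864128 to 110894881, minus strand, GRCm39), which encodes calretinin, ranged from 55 to 137 CPM in IHC libraries with a median of 88.6 CPM, and from 8.57 to 67.4 CPM in OHC libraries with a median of 24.8 CPM. The IHC libraries were all higher than the OHC libraries except IHC replicate 2, the lowest IHC library, which lay below OHC replicate 1, the highest OHC library. The IHC mean of 94.1 ± 30.6 CPM stood against an OHC mean of 29.2 ± 20.5 CPM (SD over 6 libraries each), and the log2 fold change was -1.69 ± 0.40 (SE), with a 95% interval of -2.52 to -0.86 and an adjusted p of 0.0137 (edgeR quasi-likelihood test). Among the buffers this was the largest difference, 3.23-fold on the fitted scale. OHCs also varied more around their mean for Calb2, with a coefficient of variation of 70.4% beside 32.5% in IHCs.

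Pvalb (chromosome 15, 78075314 to 78091149, minus strand) encodes parvalbumin, a slow buffer of muscle, neurons and hair cells. Its level was 120 to 401 CPM in IHC libraries (median 267 CPM) and 70.9 to 168 CPM in OHC libraries (median 115 CPM). IHC replicate 6 was the lowest IHC library and lay within the range of the OHCs, and the other 5 IHC libraries were above every OHC library. The means of 257 ± 97.1 CPM and 116 ± 33 CPM (SD, n = 6 each) gave a log2 fold change of -1.15 ± 0.27 (SE, 95% interval -1.71 to -0.59, adjusted p = 0.0138, edgeR quasi-likelihood test), or 2.22-fold.

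Calb1 (chromosome 4, 15881155 to 15908085, plus strand), which encodes calbindin-D28k, a fast buffer, did not pass the test. IHC libraries held 236 to 562 CPM (median 291 CPM) and OHC libraries 172 to 398 CPM (median 223 CPM). Only IHC replicates 2 and 4 exceeded OHC replicate 1, the highest OHC library, and the other 4 IHC libraries lay among the OHC values. The log2 fold change was -0.45 ± 0.25 (SE, 95% interval -0.98 to 0.08, adjusted p = 0.312, edgeR quasi-likelihood test), so the interval reached from a level about 2-fold lower in OHCs to no difference.

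Because a longer transcript yields more reads, levels of different genes were compared as CPM per kb of exonic sequence. On this scale Calb1, Calb2 and Pvalb summed to 167 ± 29.6 CPM per kb in IHCs and 82.2 ± 18 CPM per kb in OHCs (SD, n = 6 each). The sums ranged from 110 to 186 CPM per kb in IHC libraries and from 66.7 to 118 CPM per kb in OHC libraries, with an overlap between the lowest IHC library, replicate 6, and the highest OHC library, replicate 1. In IHCs, Calb1 and Calb2 each made up 29.9% of the sum (SD 11.7 and 8.29 percentage points) and Pvalb 40.2% ± 10.3 (SD). In OHCs, Calb1 made up 43% ± 7.03 of the sum, Calb2 17.5% ± 8.22 and Pvalb 39.5% ± 14.4 (SD, n = 6). The share of Pvalb was thus close to the same in both means while it ranged from 22.1% to 60.9% among OHC libraries, and no share kept the libraries of the 2 cell types apart. These shares depend on the length used. Per kb of the Ensembl canonical transcript, IHC means were 80.4 ± 31 for Calb1, 81.9 ± 30.9 for Pvalb and 63.8 ± 20.8 CPM per kb for Calb2. The OHC means were 58.8 ± 18.9, 36.9 ± 10.5 and 19.8 ± 13.9 CPM per kb (SD, n = 6 each).

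Of the 9 genes, Calm2 had the highest level per length in both cell types. Calm2 (chromosome 17, 87740829 to 87754363, minus strand) lay between 1181 and 2721 CPM in IHC libraries, with a median of 1793 CPM, and between 658 and 1033 CPM in OHC libraries, with a median of 843 CPM. All 6 IHC libraries were above all 6 OHC libraries, a separation seen in 2 of the 9 genes (Calm2 and S100a1) and in 4.6% of all genes tested in either direction. IHC replicate 2 was the highest and IHC replicate 6 the lowest IHC library. The mean fell from 1827 ± 500 CPM in IHCs to 844 ± 145 CPM in OHCs (SD, n = 6 each), a log2 fold change of -1.11 ± 0.20 (SE, 95% interval -1.52 to -0.70, adjusted p = 0.00139, edgeR quasi-likelihood test), or 2.16-fold. In vM39, 143 of its 1478 exonic bases (9.68%) overlap Gm65472, a long non-coding RNA gene on the opposite strand that was not analysed here.

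For Calm3 (chromosome 7, 16649290 to 16658156, minus strand) the libraries overlapped. It measured 335 to 1500 CPM in IHC libraries (median 620 CPM) and 338 to 681 CPM in OHC libraries (median 444 CPM). IHC replicate 1, the library with the most rRNA counts, held the highest value, while the lowest IHC value was below every OHC library. Its log2 fold change was -0.60 ± 0.28 (SE, 95% interval -1.19 to -0.02, adjusted p = 0.217, edgeR quasi-likelihood test). This value turned on 1 library, since without IHC replicate 1 it was -0.27 ± 0.21 (SE, adjusted p = 0.509).

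Calm2 and Calm3 together reached 1518 ± 371 CPM per kb in IHCs and 757 ± 130 CPM per kb in OHCs (SD, n = 6 each). The library sums did not overlap, at 1027 to 2090 CPM per kb in IHCs and 621 to 926 CPM per kb in OHCs. Calm2 supplied 81.4% ± 8.29 (SD) of the sum in IHCs and 75.5% ± 4.18 in OHCs, and these shares overlapped. IHC replicate 1 had the lowest Calm2 share of all libraries, at 67.9%, and IHC replicate 4 the highest, at 90.6%.

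**Figure D2:**
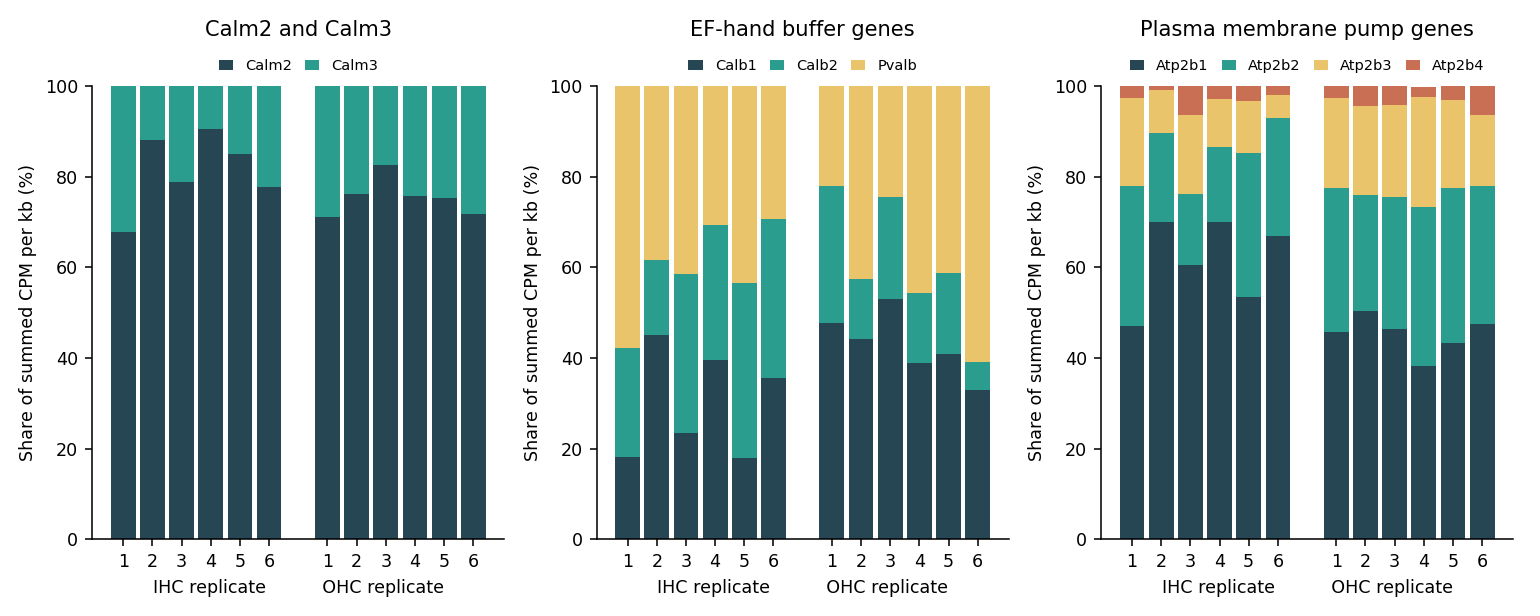
Share of the summed CPM per kb (y axis, in percent) that each gene supplied in each library, for Calm2 and Calm3, the EF-hand buffer genes and the plasma membrane pump genes, with IHC replicates to the left and OHC replicates to the right in each panel. Calm2 supplied 67.9% to 90.6% of the sum of Calm2 and Calm3 in IHC libraries and 71.1% to 82.7% in OHC libraries.

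S100a1 showed the largest difference of the 9 genes. It encodes a small EF-hand protein known from muscle, neurons and the inner ear, and lies on chromosome 3 (90418340 to 90421848, minus strand). Its level was 314 to 680 CPM in IHC libraries (median 558 CPM) and 39.4 to 248 CPM in OHC libraries (median 87.7 CPM). No OHC library reached the lowest IHC library, replicate 6, and the nearest was OHC replicate 4. The mean was 530 ± 129 CPM in IHCs and 106 ± 75 CPM in OHCs (SD, n = 6 each), and the log2 fold change was -2.32 ± 0.35 (SE, 95% interval -3.05 to -1.59, adjusted p = 0.000355, edgeR quasi-likelihood test), or 4.98-fold. By unadjusted p it ranked 74 among the 13269 genes.

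S100a13 (chromosome 3, 90416091 to 90431912, plus strand), whose product takes part in the release of proteins that lack a signal peptide, did not differ detectably. It lay at 13.2 to 81.7 CPM in IHC libraries (median 29.8 CPM) and 18 to 60.9 CPM in OHC libraries (median 29.5 CPM). Its highest values were in replicate 5 of both cell types, and the ranges overlapped almost fully. The log2 fold change was -0.25 ± 0.43 (SE), and the 95% interval of -1.14 to 0.64 leaves room for a difference of about 2-fold in the direction of IHCs (adjusted p = 0.774, edgeR quasi-likelihood test).

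The 2 S100 genes overlap on opposite strands, which bears on both values. In GENCODE vM39, exons of S100a13 cover 2563 of the 2895 exonic bases of S100a1 (88.5%), and these make up 54.4% of the 4708 exonic bases of S100a13. Most of this overlap rests on transcript models that carry the TAGENE tag, which marks models built automatically from long reads. Without them, 114 bases were shared, or 13.5% of S100a1 and 13.9% of S100a13. The canonical model of each gene, taken alone, shared 495 bases, or 59.9% of S100a1 and 11.2% of S100a13. The counting annotation was the earlier vM27, whose overlap was not measured here. No strand setting of the counting is named in the sources used here, and the paper states that defaults applied where nothing else was given. The setting in force was not checked. A count that ignored strand would leave out reads that fall wholly within shared bases. A count by strand would instead credit each such read to the gene on the matching strand. The levels of both genes are therefore uncertain. S100a13 counts were 10.9% of S100a1 counts over all libraries. S100a13 also shares 144 exonic bases with Chtop on the opposite strand, which encodes a chromatin protein and did not pass the test (log2 fold change 0.27, adjusted p = 0.497, edgeR quasi-likelihood test).

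**Figure D3:**
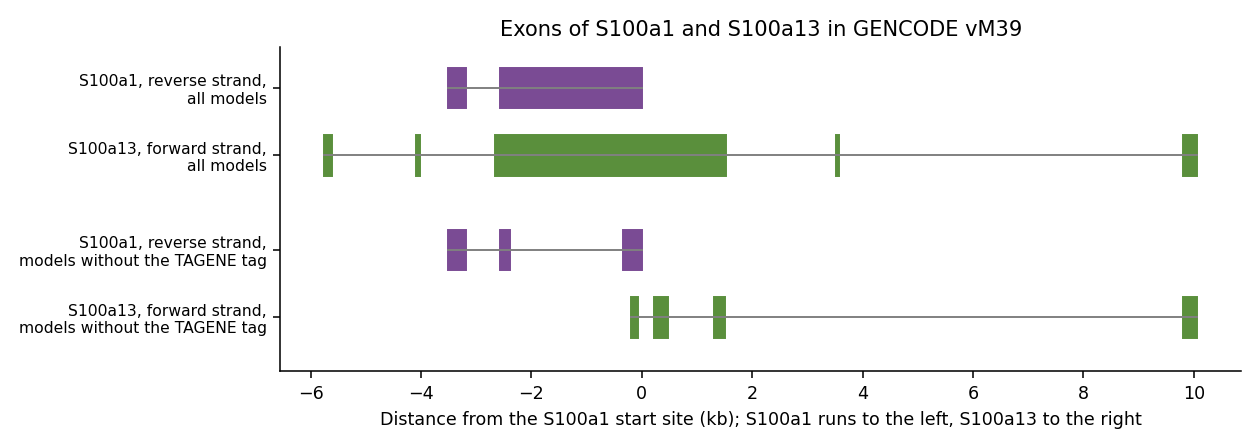
Exons (boxes) of S100a1 and S100a13 in GENCODE vM39, drawn by their distance in kb from the S100a1 start site (x axis), for all transcript models and for models without the TAGENE tag. Exons of S100a13 cover 88.5% of the exonic bases of S100a1 with all models and 13.5% without the tagged ones.

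Among the pumps, Atp2b1 (chromosome 10, 98750268 to 98862488, plus strand), which encodes PMCA1, the pump found in most cells, had the higher mean in IHCs without passing the threshold. It measured 541 to 1059 CPM in IHC libraries (median 848 CPM) and 526 to 649 CPM in OHC libraries (median 594 CPM). The IHC libraries were above every OHC library except IHC replicate 1, the one with the most rRNA counts, which lay among the OHCs. The mean was 828 ± 182 CPM in IHCs and 585 ± 51.9 CPM in OHCs (SD, n = 6 each), and the log2 fold change was -0.50 ± 0.18 (SE, 95% interval -0.87 to -0.13, adjusted p = 0.105, edgeR quasi-likelihood test). This call turned on 1 library and on the tool: without IHC replicate 1 the log2 fold change was -0.61 with an adjusted p of 0.0156 in the same test, and DESeq2 gave an adjusted p of 0.0251 with all libraries.

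Atp2b2 (chromosome 6, 113720766 to 114021022, minus strand) had the opposite sign. IHC libraries held 191 to 404 CPM (median 299 CPM) and OHC libraries 312 to 467 CPM (median 376 CPM). In 3 IHC libraries the level was below every OHC library and in 3 OHC libraries it was above every IHC library, with the rest overlapping. The log2 fold change was 0.39 ± 0.21 (SE, 95% interval -0.05 to 0.82, adjusted p = 0.294, edgeR quasi-likelihood test).

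With Atp2b3 and Atp2b4 added, the 4 pump genes summed to nearly the same level in both cell types, 81.2 ± 13.4 CPM per kb in IHCs and 78.2 ± 7.01 CPM per kb in OHCs (SD, n = 6 each). Atp2b1 supplied 61.3% ± 9.47 of this sum in IHCs and 45.3% ± 4.17 in OHCs, with overlapping ranges of 47.1% to 70.1% in IHC libraries and 38.2% to 50.4% in OHC libraries. The overlap came from IHC replicate 1 alone (47.1%), and the next lowest IHC library, replicate 5, was at 53.5%. Atp2b2 supplied 23.4% ± 7.07 in IHCs and 31.1% ± 3.57 in OHCs, and Atp2b3 12.3% ± 5.37 and 19.8% ± 2.75. Atp2b4 was the smallest part, at 2.98% ± 1.85 and 3.84% ± 1.48. By gene, Atp2b3 had a log2 fold change of 0.64 ± 0.31 (SE) and Atp2b4 of 0.18 ± 0.44 (SE), and neither passed the test (adjusted p = 0.233 and 0.852, edgeR quasi-likelihood test).

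Ordered by level per length in IHCs, Calm2 (1236 ± 338 CPM per kb) was highest and overlapped no other gene, followed by Calm3 (282 ± 155 CPM per kb) and S100a1 (183 ± 44.4 CPM per kb), which also overlapped. Pvalb (69.1 ± 26), Atp2b1 (49.9 ± 10.9), Calb2 (49.6 ± 16.1) and Calb1 (48.8 ± 18.8 CPM per kb) formed a group whose neighbours did not differ beyond their spread. Atp2b2 (18.7 ± 5.17 CPM per kb) and S100a13 (8.4 ± 5.45 CPM per kb) were lowest.

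In OHCs the calmodulins kept the same order and did not overlap, at 571 ± 97.9 CPM per kb for Calm2 and 186 ± 49.2 CPM per kb for Calm3. S100a1 (36.8 ± 25.9), Calb1 (35.7 ± 11.5), Atp2b1 (35.3 ± 3.13), Pvalb (31.1 ± 8.86), Atp2b2 (24.4 ± 4.44), Calb2 (15.4 ± 10.8) and S100a13 (7.06 ± 3.29 CPM per kb) followed, with each overlapping the next. Per length, Calb2 was below Calb1 in 3 of 6 IHC libraries and in 6 of 6 OHC libraries. The order depended in part on the length used, a check added after the data were seen. With canonical transcripts Calm2 stayed highest and S100a13 lowest, while Atp2b1 and Pvalb changed places in IHCs, as did Calb1 and Calb2, and Atp2b1 moved above Calb1 and Atp2b2 above Pvalb in OHCs. S100a1 moved from below to above Calm3 in IHCs and stayed below it in OHCs. Per kb of its canonical transcript of 827 bases it reached 641 ± 156 CPM per kb in IHCs, above Calm3 at 305 ± 167 CPM per kb, and 129 ± 90.7 CPM per kb in OHCs, below Calm3 at 201 ± 53.2 CPM per kb.

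**Figure D4:**
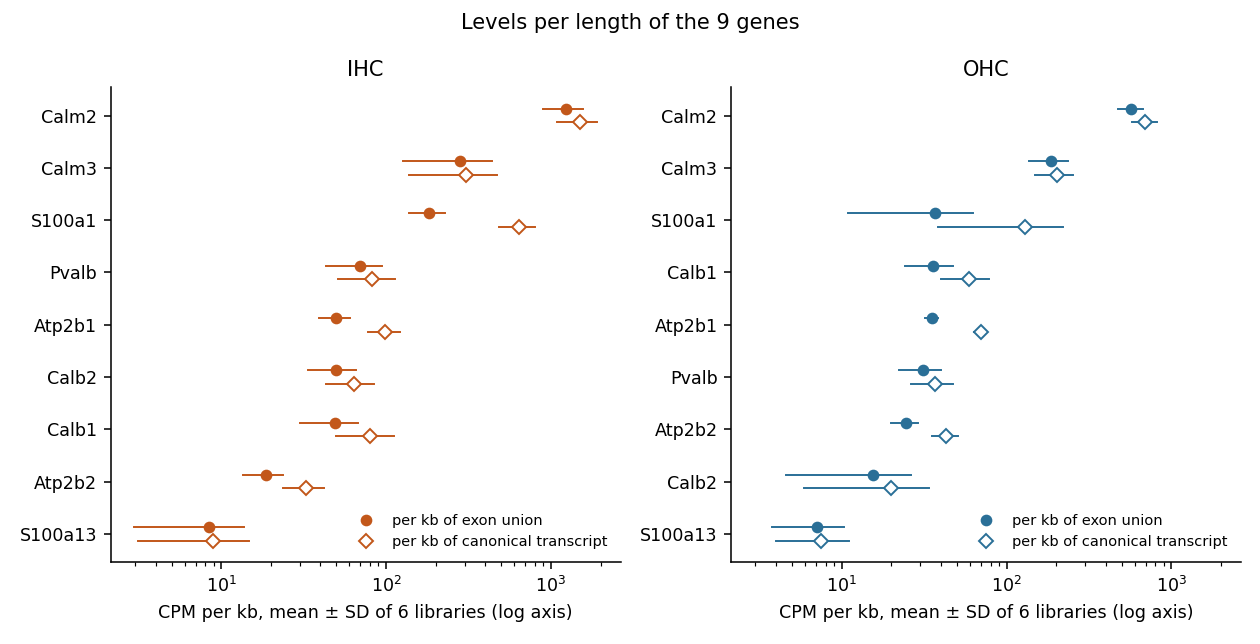
Mean ± SD over 6 libraries of CPM per kb (x axis, log scale) of the 9 genes in IHCs (left) and OHCs (right), per kb of all exonic bases (filled circles) and per kb of the canonical transcript (open diamonds). Calm2 lies highest in both cell types, and S100a1 moves most between the 2 lengths.

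The 4 genes past the threshold were each set beside the tested genes with the most similar profile over the 12 libraries, by the root mean square difference of log2 CPM after each profile was centred on its own mean. S100a1 was closest to Spock1 (0.45 log2 units), Draxin (0.48) and Nefl (0.59), against a median of 1.73 over all genes. Calb2 was closest to Lrtm2 (0.50), Wipf3 (0.52) and Rprm (0.56), against a median of 1.55 over all genes. The nearest genes to Calm2 included Ybx3 (0.29) and Ldlrad3 (0.30), against a median of 1.15, and those to Pvalb were Anxa6 (0.32), which encodes a calcium-dependent membrane-binding annexin, Gm5835 and Sh3bgrl3 (both 0.33), against a median of 1.22. All of these genes but Gm5835 were themselves IHC-enriched. Choosing them by their profile over the same 12 libraries largely set this outcome, so it is no separate result.

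Other genes of calcium handling gave context for the 9. Of 103 further genes in 9 lists, 68 were tested, and 7 were IHC-enriched and 1 OHC-enriched, or 11.8% beside the 6.26% of all genes. Their median log2 fold change was -0.30. These lists too were chosen with earlier results of these data known. Of the 5 calmodulin-like and EF-hand buffer genes, Calml4 was the 1 tested and did not pass (log2 fold change 0.22 ± 0.25 SE, adjusted p = 0.641, edgeR quasi-likelihood test). Ocm, which encodes oncomodulin, the abundant buffer of mature OHCs, was below the filter, with at most 29 counts in an IHC library and 139 in an OHC library, and Scgn, the gene of secretagogin, had at most 25 counts in an IHC library and 0 in OHCs. None of the 3 tested S100 genes of the 14 listed passed in edgeR (0 of 3, with S100a11 alone at an unadjusted p under 0.05), while DESeq2, which filters in another way, called S100a6 and S100a16 OHC-enriched. The tested S100b averaged 4.12 CPM among IHC libraries and 4.24 CPM among OHC libraries, above S100g on this scale (0.748 and 4.14 CPM). S100a11 and S100g, named for their mean length-scaled level over all libraries, had log2 fold changes of -1.51 ± 0.67 (SE) and 2.45 ± 1.34 (SE), and both values turned on single libraries. S100a11 passed without OHC replicate 4 (adjusted p = 0.0462) and in no other test that left out 1 library. S100g ran from 1.16 without OHC replicate 4 (adjusted p = 0.672) to 5.50 without IHC replicate 2 (adjusted p = 0.0223, edgeR quasi-likelihood test), and OHC replicate 4 held its highest value.

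Among the CaBP genes and neuronal calcium sensors, 2 of the 14 tested were IHC-enriched. Kcnip3, which encodes the calcium sensor DREAM, measured 116 to 234 CPM in IHC libraries and 4.91 to 40.1 CPM in OHC libraries, with a log2 fold change of -3.12 ± 0.41 (SE, adjusted p = 7e-05, edgeR quasi-likelihood test). Cabp2, a calmodulin-like regulator of hair cell calcium channels, measured 16.7 to 35.4 CPM and 0.133 to 9.99 CPM (log2 fold change -2.53 ± 0.74 SE, adjusted p = 0.0462), and it passed in 2 of the 12 tests that each left out 1 library (adjusted p 0.0404 to 0.084). The list had a median of -1.41, and Cib2, a part of the transduction complex and its most abundant gene, averaged 587 ± 182 CPM among IHC libraries and 472 ± 86.2 CPM among OHC libraries without passing (adjusted p = 0.42).

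Of 7 further genes tested for calcium pumps and their partners, 1 was IHC-enriched. Atp2a3, which encodes the SERCA3 pump of the endoplasmic reticulum, ranged from 95.6 to 220 CPM in IHC libraries and from 0.983 to 17.4 CPM in OHC libraries, with no overlap (log2 fold change -4.33 ± 0.62 SE, adjusted p = 0.000205, edgeR quasi-likelihood test). Atp2a2, which encodes SERCA2, did not pass at 307 ± 51.3 and 393 ± 43.3 CPM (SD, n = 6 each; log2 fold change 0.36, adjusted p = 0.237). Bsg, which encodes basigin, a partner of the PMCAs, had a log2 fold change of -0.59 ± 0.26 (SE, adjusted p = 0.177).

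Of the sodium-calcium exchangers, Slc8a2 (NCX2) fell from 448 ± 152 CPM in IHCs to 194 ± 19 CPM in OHCs and Slc24a3 (NCKX3) from 205 ± 70.4 CPM to 87.6 ± 18.1 CPM (SD, n = 6 each). Neither overlapped between the cell types, and the log2 fold changes were -1.21 ± 0.21 and -1.23 ± 0.24 (SE, adjusted p = 0.00133 and 0.00321, edgeR quasi-likelihood test). Slc8a1 (NCX1), the most abundant exchanger gene by CPM averaging 1023 ± 207 CPM among IHC libraries and 722 ± 198 CPM among OHC libraries, did not pass (adjusted p = 0.151).

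In the list of calcium release and store entry, Stim2, a sensor of the calcium in the endoplasmic reticulum, was IHC-enriched at 96.9 ± 80.2 and 27.6 ± 7.84 CPM (log2 fold change -1.81 ± 0.46 SE, adjusted p = 0.0226, edgeR quasi-likelihood test), and the groups overlapped. It passed in 9 of the 12 tests with 1 library left out, and not without IHC replicate 6 (adjusted p = 0.0717), OHC replicate 1 (0.0501) or OHC replicate 5 (0.0520). It also fell short with a replicate block (log2 fold change -1.46, adjusted p = 0.0665) and without IHC replicate 1 and OHC replicate 3 together (-1.67, adjusted p = 0.0628). Ryr1, a ryanodine receptor, was the 1 OHC-enriched gene, at 0.0272 to 2.27 CPM in IHC libraries and 1.52 to 22.8 CPM in OHC libraries (log2 fold change 3.81 ± 1.08 SE, adjusted p = 0.0392), and it passed in 3 of the 12 tests that each left out 1 library (adjusted p 0.0166 to 0.105). Orai2 of the same list did not pass (log2 fold change 0.32 ± 0.37 SE).

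Camk2b, which encodes a subunit of a calmodulin-dependent kinase, was the 1 gene of 12 tested in its list to pass, with 304 ± 114 CPM among IHC libraries and 146 ± 32.4 CPM among OHC libraries (log2 fold change -1.06 ± 0.24 SE, adjusted p = 0.0116, edgeR quasi-likelihood test). Pcp4, a calmodulin-binding regulator, lay at 519 ± 105 and 555 ± 108 CPM and did not pass. No gene passed in edgeR among 6 tested for the mitochondrial calcium uniporter (0 of 6), where Micu3, at a log2 fold change of 0.79 ± 0.31 (SE), was the 1 gene with an unadjusted p under 0.05 and was called OHC-enriched by DESeq2, and Smdt1 had 0.09 ± 0.40 (SE). None of 9 genes for calcium binding in the secretory pathway passed in edgeR (0 of 9), with 4 at an unadjusted p under 0.05 and 1, Nucb1, called by DESeq2. Of these, Calr had a log2 fold change of -0.45 ± 0.21 (SE) and Rcn1 of -0.08 ± 0.19 (SE). The exact test called none in either list.

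**Figure D5:**
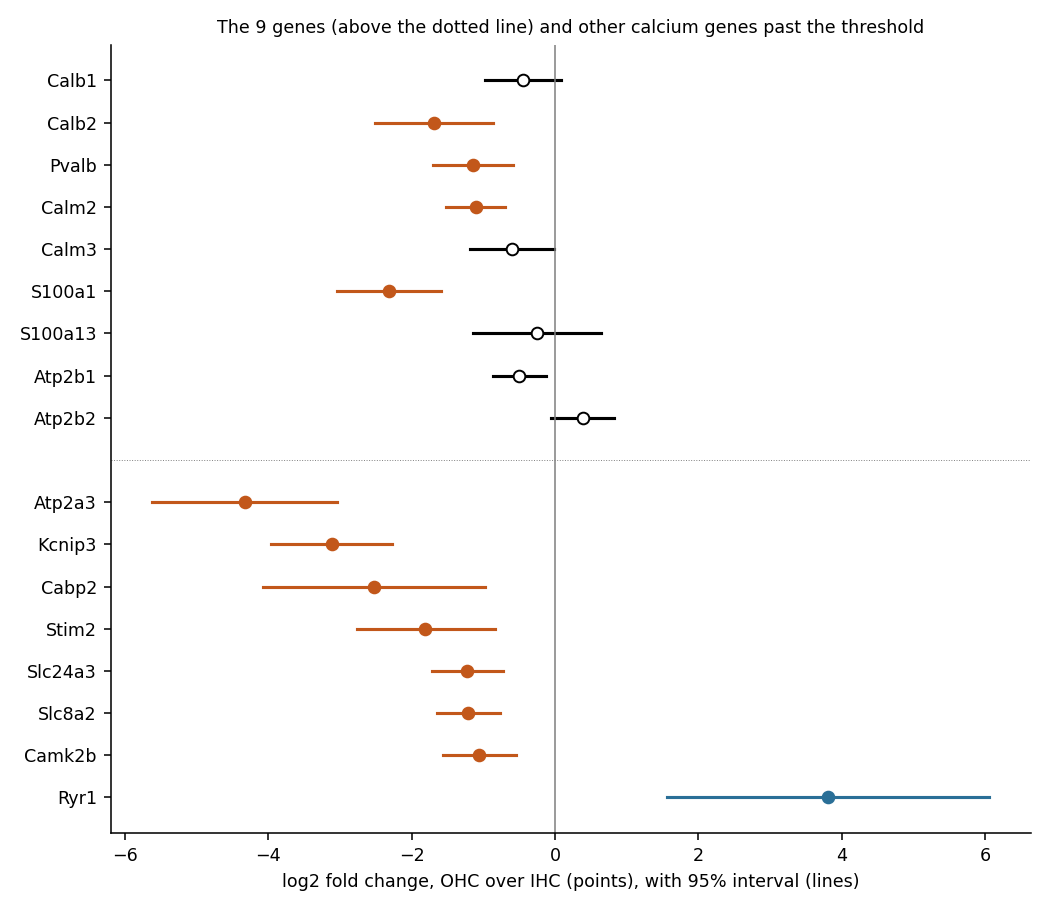
Log2 fold change of OHCs over IHCs (x axis) with its 95% interval, from the edgeR quasi-likelihood test, for the 9 genes above the dotted line and for the 8 other calcium genes past the threshold below it. Filled orange points are IHC-enriched, the filled blue point is OHC-enriched and open points did not pass. The intervals of S100a1, Calb2, Pvalb and Calm2 lie wholly below 0, as do those of Calm3 and Atp2b1, which did not pass after adjustment.

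Some of the same buffers are known from supporting cells and from spiral ganglion neurons. The summed level of the supporting cell markers was higher in IHC libraries without overlap, as was that of S100a1 and Calm2. Of the 7 markers, Sox2 and Gjb2 were IHC-enriched and the other 5 did not pass, among them Fgfr3 with the opposite sign (16.8 ± 27.9 CPM in IHCs and 73.1 ± 3.47 CPM in OHCs, adjusted p = 0.0722, edgeR quasi-likelihood test) and Lfng at a log2 fold change of -0.24. Tecta, which made up most of the greater epithelial ridge sum, was IHC-enriched at 772 ± 222 and 220 ± 117 CPM. Otoa, the only other ridge marker tested, had the opposite sign (6.38 ± 5.83 and 9.7 ± 5.97 CPM, adjusted p = 0.661, edgeR quasi-likelihood test). Epyc, Crabp1 and Fst were below the filter, with the mean of Epyc higher in OHCs and those of Crabp1 and Fst higher in IHCs. The spiral ganglion neuron markers summed to 0.366 to 16.8 CPM in IHC libraries and 0.756 to 8.11 CPM in OHC libraries, with 1 of 5 tested (Ntrk3, IHC-enriched), Prph at no more than 3 counts in any library, and Slc17a6 and Slc17a7 at no more than 3 counts in any IHC library. The part of these cells in the values of the 9 genes was not tested. Glia markers summed to 12 to 33.7 CPM in IHC libraries and 2.24 to 32.8 CPM in OHC libraries, mesenchyme markers to 15.9 to 39.2 CPM and 3.37 to 27.3 CPM, and erythroid markers to no more than 0.0613 CPM and 3.2 CPM. The lowest IHC values of S100a1, Pvalb and Calm2 all came from IHC replicate 6. Without IHC replicate 1 and OHC replicate 3 together, left out after the data were seen, S100a1, Calb2, Pvalb and Calm2 still passed (adjusted p 0.0012, 0.0244, 0.0493 and 0.00192, edgeR quasi-likelihood test), and Atp2b1 passed as well (0.0386).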

How the data were processed

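RNA-seq was measured in 6 IHC and 6 OHC libraries, grouped by sample title. The values that the authors deposited are raw counts, 1 file per library. By the methods and the submitters' processing notes, reads were aligned with STAR in 2 passes to GRCm39 and counted with HTSeq in its intersection-nonempty mode, and Trimmomatic is also named. The versions are not given in the sources used here. No HTSeq strand setting is named either, beyond the paper's statement that defaults applied where nothing else was given. The methods name GENCODE vM27 as the reference. Summary lines of HTSeq were left out, and counts on genes made up 56.6% to 75.8% of all lines in IHCs and 53.9% to 71.1% in OHCs. Reads carry no molecular identifiers. The spread between libraries is the measure of error in the comparison of IHCs with OHCs.

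Names, coordinates and exon lengths were taken from GENCODE vM39 on GRCm39, which matched 54749 of 55416 identifiers (98.8%). Genes were filtered with filterByExpr (minimum count 10, minimum total 15), scaled by TMM and compared with glmQLFit and glmQLFTest in edgeR 4.0.16 (R 4.3.3), without covariates, at a Benjamini-Hochberg adjusted p of 0.05. SE is the log2 fold change over the root of F, and 95% intervals use the t distribution. Log2 CPM profiles used a prior count of 2. The test was checked on simulated counts. Figures used Python 3.11.15 with matplotlib 3.10.9.

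The 9 genes and all lists were chosen with earlier results of these data known. Named besides the 9 are, for each list, the genes past the threshold (at most 6) and the 2 with the highest length-scaled level, the 3 nearest profiles of each of the 9 genes past the threshold, and genes sharing exons on the opposite strand. Alternatives were DESeq2 1.42.0, its size factors, the edgeR exact test, other filters, removal of rRNA genes, a replicate block and leaving out each library. Some results are not reported here.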

Additional observations from a re-analysis of the deposited data

Results flagged for a closer look

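A library is listed here where its gap to the nearest library of the same cell type was large beside the range of all 6, by Dixon's criterion, which chance meets in about 1 in 20 groups. None of the 9 genes had such a library in either cell type, and 10 groups of the other named calcium genes did. Calm3 in IHC replicate 1 (1500 CPM, next 778 CPM) and S100a1 in OHC replicate 4 (248 CPM, next 120 CPM) fell just short of the criterion. The other named genes are more numerous than the 9, and the rate of such groups was not compared with 1 in 20. In IHCs the groups that met it were S100g in replicate 2 (4.06 CPM, next 0.202 CPM), Hpcal1 in replicate 1 (230 CPM, next 118 CPM), Kcnip3 in replicate 3 (234 CPM, next 136 CPM), Slc8a1 in replicate 6 (1427 CPM, next 1013 CPM), Slc24a3 in replicate 5 (340 CPM, next 214 CPM) and Smdt1 in replicate 3 (70.9 CPM, next 28.1 CPM). In OHCs they were S100a11 in replicate 4 (20.2 CPM, next 6.25 CPM), S100g in replicate 4 (16.5 CPM, next 3.57 CPM), Kcnip3 in replicate 5 (40.1 CPM, next 17.1 CPM) and Rcn1 in replicate 1 (634 CPM, next 490 CPM). Kcnip3 and Slc24a3 stayed IHC-enriched in all 12 tests that left out 1 library.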

How the results depend on the processing

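S100a1, Calb2, Pvalb and Calm2 passed in every setting run. With 1 library left out at a time, their log2 fold changes ran from -2.77 to -2.16, -2.14 to -1.50, -1.31 to -0.99 and -1.22 to -0.97. The IHC-enriched count of the 9 was 4 to 5, Atp2b1 being the fifth: it passed with DESeq2 (-0.50), without IHC replicate 1, and without IHC replicate 1 and OHC replicate 3 together (-0.59, a setting chosen after seeing the data), and ran from -0.61 to -0.42 with 1 library left out. S100a13 turned positive without IHC replicate 5 (0.07; range -0.52 to 0.07) and in the added setting (0.02), where Rcn1 came to 0.00 (range -0.19 to -0.01 with 1 library left out). Other reversals were Smdt1 without IHC replicate 5 or 6 (-0.01 each) and without OHC replicate 4 (-0.08, range to 0.49), and Pcp4 without IHC replicate 6 (-0.01, range to 0.16). The other calcium genes called numbered 12 IHC-enriched and 4 OHC-enriched with DESeq2. Their OHC-enriched count was 0 with at least 10 counts in every library, 4 with no filter, 2 without rRNA genes, 0 in the added setting and 0 to 3 with 1 library left out. Over all genes, beside 506 IHC-enriched and 324 OHC-enriched as reported, DESeq2 called 1326 and 1574, no filter gave 893 and 918, and the exact test 751 and 519. Leaving out 1 library gave 369 to 551 and 225 to 402. Libraries with the same replicate number did not deviate together over all tested genes (correlations of deviations -0.0313 to 0.0184, none best with its own number). This cannot tell whether they came from the same pups, which is not stated for these RNA libraries. A replicate block gave 4 of the 9 as IHC-enriched, 512 IHC-enriched genes and 391 OHC-enriched genes, and left Stim2 short of the threshold (-1.46). The causes of these changes were not tested. Depth allowed every one of the 9 to be tested, while low genes such as Ocm could not be compared.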
